A study of Mus musculus with 8 samples.

Results

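The genes described here encode the proteins of the cytosolic ribosome. They were chosen by symbol alone: the letters *Rpl* or *Rps* followed by a number, with an optional a, l or x and 1 further digit, together with *Rplp0*, *Rplp1*, *Rplp2* and *Rpsa*. Symbols marked as pseudogenes by -ps and the *Rps6k* kinases were left out. The rule found 88 of the 48321 gene symbols, 52 of the large subunit and 36 of the small subunit. Of these, 81 passed the filter on low counts and were tested among 12597 genes. The other 7 are accounted for below. RNA was sequenced from splenic CD8+ T cells of C57BL/6 mice, the cytotoxic lineage of T lymphocytes, in 8 libraries: WT and KO at day 0 and at day 5 of culture, with 2 libraries in each of the 4 groups. The study asked how loss of SATB1, a chromatin organiser of T cells, affects CD8+ T cells stimulated in vitro. The series gives the mice as Satb1 F/F; E8I-cre, that is floxed *Satb1* alleles with a Cre transgene driven by a *Cd8a* enhancer active in mature CD8 T cells, and the sample labels give the genotype only as WT or KO, so the alleles of the WT mice are not stated here. The study's methods describe culture with anti-CD3e and anti-CD28 antibodies followed by IL-2, and prolonged antibody stimulation for an exhaustion condition; which of these the day 5 cells received is not stated.

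The ribosome joins a small subunit, which reads the mRNA, to a large subunit, which forms the peptide bond, and each carries 1 copy of nearly every one of its proteins. Most mRNAs of ribosomal proteins begin with a run of pyrimidines, the 5′ TOP motif, through which the mTOR pathway and LARP1 control their translation. Resting T cells hold few ribosomes, and activation through the T-cell receptor is known to raise ribosome production. Unless stated otherwise, levels below are CPM, that is read counts per 1000000 counts, on a library size scaled by trimmed mean of M-values (TMM), and changes are log2 fold changes ± SE from an edgeR quasi-likelihood fit over all 8 libraries. Genes with a false discovery rate (FDR) under 0.05 over the 12597 genes were called. No source says that the 2 libraries of a group came from separate animals, so p-values measure only the spread between these libraries. In bulk RNA, fewer cells of a type and less RNA per cell cannot be told apart.

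Gene counts ranged from 4170126 to 11117971 per library, and replicate 1 of KO at day 0 was the deepest. *Satb1*, the targeted gene, stood at 97.8 and 91.6 CPM in WT and at 144 and 125 CPM in KO at day 0, so the KO-labelled libraries of day 0 were above WT (log2 fold change 0.51 ± 0.15, FDR = 0.125, edgeR). At day 5 it stood at 96.5 and 116 CPM in WT and at 56.5 and 62.3 CPM in KO, a fall of 0.84 on the log2 scale (SE 0.15, FDR = 0.0162, edgeR). The day 0 values thus go against the label, KO below means the libraries labelled KO, and every direction between genotypes, every change with culture within a genotype and the interaction rest on these labels. The 5 CD8 T cell markers summed to between 10710 and 11400 CPM per library at day 0, and at day 5 to between 6364 and 6475 CPM in WT and between 7470 and 7540 CPM in KO. The 11 markers of CD4 T, B, myeloid, NK and red cells summed to between 11.2 and 18.7 CPM at day 0 and between 6.75 and 8.46 CPM at day 5. These sums moved with culture and, at day 5, with genotype, and their part in the results was not tested. At day 5, *Itgax* and *Hbb-bs* had no count in any of the 4 libraries.

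Measured levels differed more than 1000-fold between members, although the proteins are needed in nearly equal numbers. Per kilobase of coding sequence and averaged over the 8 libraries, *Rpl32* stood highest at 4073 CPM per kb. Other high members were *Rpl4* at 3724, *Rps14* at 3671 and *Rpl35* at 2778 CPM per kb. At the other end, *Rpl24* had 3.51 CPM per kb, *Rps2* 29.4, *Rpl21* 30.2, *Rpl13* 42.1 and *Rps12* 47.0 CPM per kb. All 5 encode core proteins of their subunit. Reads that aligned to more than 1 place were not counted, and mammalian genomes hold many processed copies of these mRNAs. Of the 50-base windows of the *Rps12* transcript, 90.1% occur exactly in transcripts of other annotated genes, and the share was 79.0% for *Rps2*, 80.3% for *Rpl13*, 77.7% for *Rpl24* and 55.5% for *Rpl21*. For *Rpl4* it was 16.5%. Across the 80 coding members tested, the share of copied windows and the level per kb had a Spearman correlation of -0.34, given as a description, since all points come from the same libraries. Some highly counted members also had copies: in *Rps27* 98.6% of windows were copied and in *Rpl3* 85.6%. In *Rpl24*, 69.4% of windows also lie in transcripts of a gene that overlaps it, where counting can set reads aside. The median share of copied windows across the 80 coding members was 52.2%. Levels here are levels of countable reads, and the part of copied windows in them was not tested.

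The 7 members that were not tested had between 0 and 8 counts in any library. *Rpl10l* and *Rps12l1* had none in all 8 libraries, and *Rps3a2* had at most 1. *Rpl3l*, the striated-muscle counterpart of *Rpl3*, had at most 3, *Rpl39l*, known from testis, at most 8, *Rpl6l* at most 7 and *Rps4l* at most 8 counts. Of the 88 symbols, 5 are annotated as processed pseudogenes in GENCODE M21: *Rpl6l*, *Rps12l1*, *Rps3a2*, *Rps3a3* and *Rps4l*. Only *Rps3a3* of these was tested.

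To show runs of pyrimidines near the start, windows around the RefSeq transcription start (GRCm38.p6) are printed for 8 members that the results below turn on. Each runs from 40 bases before the start to 20 bases from it on, on the strand of the gene. Capitals mark the longest run, or the first of equal longest runs as in *Rps27l*. A run is a C followed by at least 4 further C or T bases that begins within 30 bases before to 20 bases after the start. A marked run need not begin the mRNA, so the marks do not by themselves show a 5′ TOP motif. In *Rps27l* the marked run lies wholly before the start, and the first of its 2 listed starts is printed.
Rps27 (chr3:90213629-90213688, minus strand): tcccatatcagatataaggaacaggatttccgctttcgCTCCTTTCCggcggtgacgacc
Rps27l (chr9:66946046-66946105, plus strand): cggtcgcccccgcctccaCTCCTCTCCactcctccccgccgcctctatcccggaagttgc
Rpl38 (chr11:114668540-114668599, plus strand): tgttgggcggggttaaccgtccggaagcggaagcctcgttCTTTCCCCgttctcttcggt
Rpl7a (chr2:26910767-26910826, plus strand): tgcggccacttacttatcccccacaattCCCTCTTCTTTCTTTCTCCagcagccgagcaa
Rpl27a (chr7:109519155-109519214, plus strand): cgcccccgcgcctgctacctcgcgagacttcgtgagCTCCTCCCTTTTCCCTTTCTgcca
Rpl35 (chr2:39005112-39005171, minus strand): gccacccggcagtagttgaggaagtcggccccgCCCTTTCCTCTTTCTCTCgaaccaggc
Rps28 (chr17:33824543-33824602, minus strand): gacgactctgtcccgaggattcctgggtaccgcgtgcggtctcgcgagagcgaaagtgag
Rpl37 (chr15:5116573-5116632, plus strand): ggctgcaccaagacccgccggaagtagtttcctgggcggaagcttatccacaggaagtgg
A RefSeq window was listed for 63 of the 88 members. A run of this kind was found for 50 of the 63 (79.4%), against 57.6% of the 27025 genes with a listed start, and a run of 8 bases or more for 32 of the 63 (50.8%), against 18.2%. *Rpl27a* and *Rpl35* carry runs of 20 and 18 bases, while no such run lies in the windows of *Rps28* and *Rpl37*, which says only that these letters are not in those windows. The median log2 fold change of KO against WT at day 0 was -0.26 in the 31 tested members with a run of 8 bases or more and -0.19 in the 29 others with a listed start. At day 5 it was -0.14 and -0.18. For day 5 against day 0, these medians were 0.05 and 0.19 in WT and 0.25 and 0.24 in KO.

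Together the 88 members held between 3.08% and 3.75% of the gene counts of a library, before any scaling. The share was 3.75% and 3.57% in the WT libraries of day 0 and 3.12% and 3.13% in the KO libraries. At day 5 it was 3.25% and 3.61% in WT and 3.30% and 3.08% in KO. The groups thus did not overlap at day 0, where both KO libraries were lower (3.66% ± 0.122 in WT and 3.13% ± 0.00746 in KO, SD, n = 2), and overlapped at day 5 (3.43% ± 0.257 and 3.19% ± 0.156). Without *Rplp0*, left out after its replicates were seen to be far apart, the shares of day 5 did not overlap: WT libraries held at least 3.13% and KO libraries at most 3.04%. Among single genes tested, by TMM-scaled CPM, both KO libraries were below both WT libraries in 21.7% at day 0 and 20.7% at day 5. In both subunits the KO libraries of day 0 lay below the WT libraries: 1.77% and 1.74% against 2.07% and 2.08% for the large subunit, and 1.36% and 1.39% against 1.68% and 1.49% for the small subunit. At day 5 the large subunit overlapped, at 1.77% and 2.01% in WT and 1.89% and 1.73% in KO, and the small subunit did not, at 1.48% and 1.60% in WT and 1.41% and 1.35% in KO. Within each genotype the shares of day 0 and day 5 overlapped for all members together, and in WT both day 5 libraries were below both day 0 libraries for the large subunit.

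**Figure D1:**
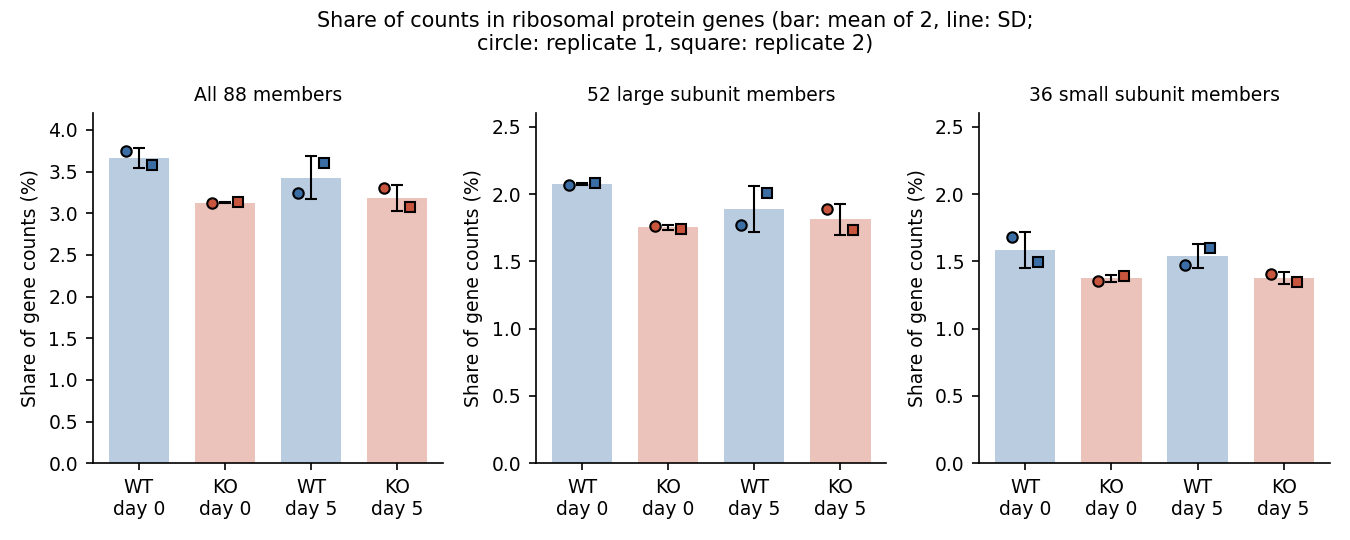
Share of gene counts in percent (vertical axis) held by all 88 members, the 52 large subunit members and the 36 small subunit members in each group; bars are means of 2 libraries, lines SDs, and circles and squares are replicates 1 and 2. In the first panel the KO libraries of day 0 (3.12% and 3.13%) sit below both WT libraries of day 0 (3.75% and 3.57%). At day 5 the groups overlap for all members and for the large subunit, and in the small subunit panel both KO libraries (1.41% and 1.35%) are below both WT libraries.

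Before culture, nearly all members were slightly lower in the libraries labelled KO, and 1 of 81 was called. Point estimates were below 0 for 78 of the 81 members, against 50.2% of all genes tested, with a median log2 fold change of -0.22 against 0.00 over all genes. The lower and upper quartiles of the members were -0.30 and -0.14. In 54 of 81 members (66.7%) both KO libraries were below both WT libraries, which 21.7% of all genes showed, and no member had both KO libraries above. The shift was alike in both subunits, with medians of -0.21 in the large and -0.22 in the small. The called member was *Rpl13*, a large subunit protein: 41.9 and 29.6 CPM in WT and 14.6 and 18.4 CPM in KO. Its KO libraries were both lower, by 1.14 ± 0.25 on the log2 scale, a 2.20-fold difference (FDR = 0.0367, edgeR). Across all genes 1.80% were called in this comparison, so 1 call of 81 (1.2%) is near the background. The call was lost when any of the 4 day 0 libraries was left out, and 80.3% of the *Rpl13* windows are copied elsewhere. The next largest was *Rps12*, at 19.9 and 21.0 CPM in WT and 13.5 and 15.4 CPM in KO (log2 fold change -0.51 ± 0.22, FDR = 0.322, edgeR). *Rpl36a* stood at 182 and 163 CPM in WT and at 128 and 132 CPM in KO (log2 fold change -0.41 ± 0.12, FDR = 0.146, edgeR). With an unadjusted p under 0.05 there were 25 of 81 members, against 13.8% of all genes. An offset fitted on GC content and transcript length, called the GC and length offset below, left the median at -0.15, with 76 of 81 below 0 and no member called.

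At day 5 most members were again slightly lower in KO, and the difference was larger in the members with the shortest coding sequences. The members called were all lower in the libraries labelled KO, 4 of 81 (4.9%) against 1.63% of all genes in either direction: *Rps28*, *Rps29*, *Rps27* and *Rpl37*. *Rps28* and *Rps29* encode small proteins of the small subunit head, *Rps27* a zinc-binding protein of the small subunit platform, and *Rpl37* a zinc-binding protein of the large subunit. *Rps28* stood at 51.5 and 51.1 CPM in WT and at 21.5 and 25.8 CPM in KO. Its groups were well apart, by -1.12 ± 0.17 on the log2 scale, a 2.17-fold difference (FDR = 0.0078, edgeR), whereas at day 0 it stood at 42.9 and 43.2 CPM in WT and at 37.8 and 42.9 CPM in KO. *Rps29* stood at 83.8 and 94.7 CPM in WT and at 45.1 and 45.8 CPM in KO. It was 1.96-fold lower in KO (log2 fold change -0.97 ± 0.15, FDR = 0.00778, edgeR), while its day 0 libraries overlapped, at 93.6 and 86.4 CPM in WT and 77.8 and 89.4 CPM in KO.

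*Rps27* stood at 440 and 587 CPM in WT and at 332 and 296 CPM in KO at day 5 (log2 fold change -0.71 ± 0.15, FDR = 0.039, edgeR). *Rpl37* stood at 235 and 233 CPM in WT and at 163 and 137 CPM in KO (log2 fold change -0.64 ± 0.14, FDR = 0.0349, edgeR). Just outside the threshold, *Rpl38* stood at 143 and 134 CPM in WT and at 92.2 and 81.4 CPM in KO (log2 fold change -0.68 ± 0.16, FDR = 0.0607, edgeR). The *Rps28* and *Rps29* calls held under every scaling tried and were lost when either KO library of day 5 was left out; the 4 calls became 0 without either of these libraries, and 2 without WT replicate 2 of day 5 or either WT library of day 0. *Rps27* and *Rpl37* were no longer called with the GC and length offset or with the 4 libraries of day 5 alone.

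**Figure D2:**
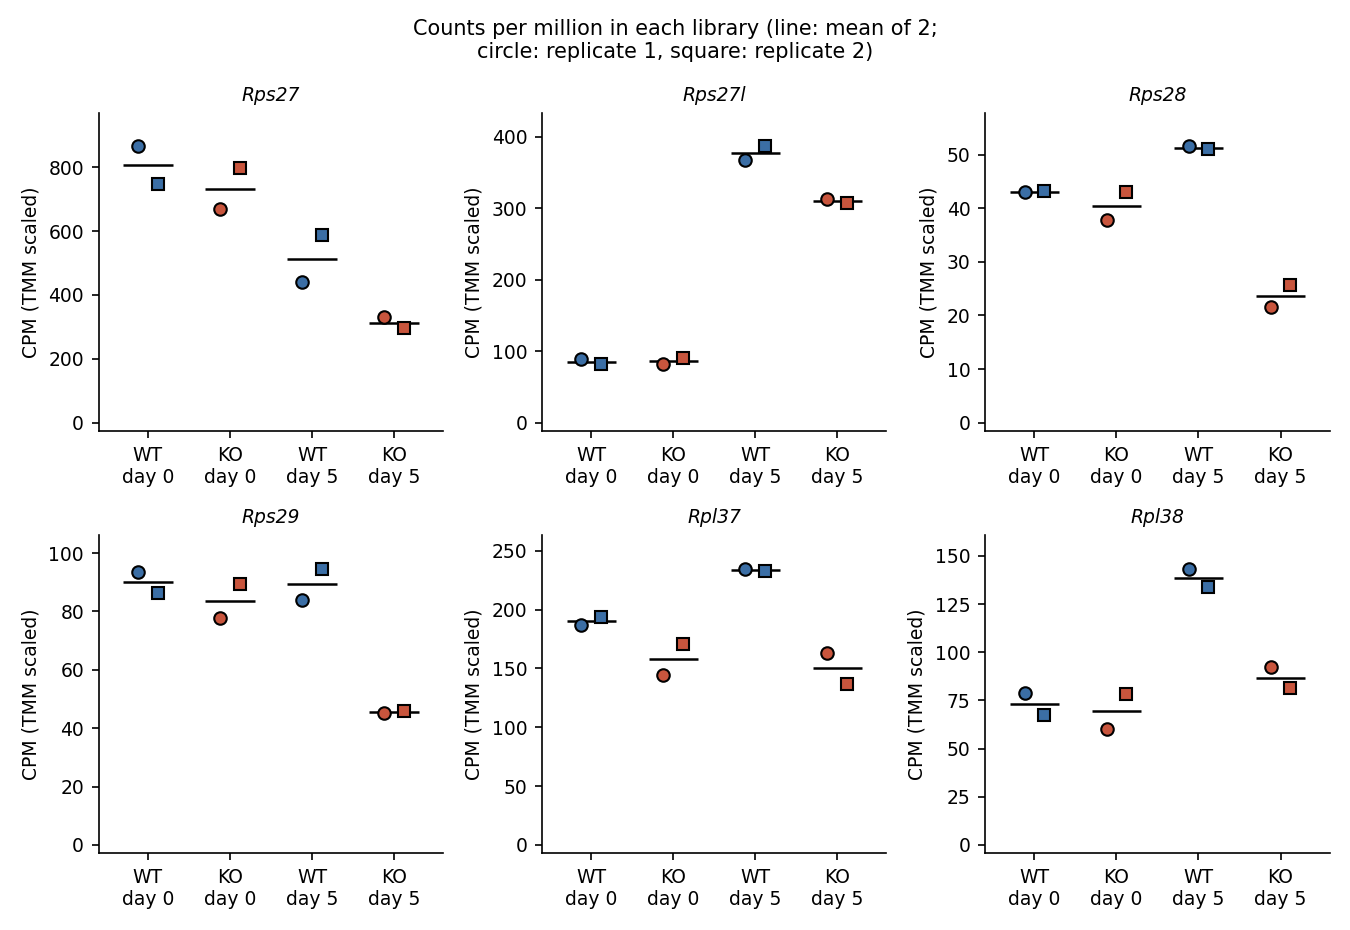
TMM-scaled CPM (vertical axis), of 6 members with short coding sequences in each library; lines are means of 2, circles replicate 1, squares replicate 2, blue WT and red KO. At day 5 both KO libraries are below both WT libraries in all 6, for *Rps28* at 21.5 and 25.8 against 51.5 and 51.1 CPM, and *Rps27l* rises with culture while *Rps27* falls.

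Over the members, the day 5 difference followed coding length. Its Spearman correlation with the coding length was 0.64 across the 80 coding members, against 0.10 across 10381 coding genes tested and 0.13 across 76 mitochondrial ribosomal protein genes. At day 0 it was -0.21 across the members. These correlations describe genes measured in the same libraries, and groups by length were formed after the values had been seen. The 10 shortest members, with 75 to 291 coding bases, were *Rpl41*, *Rpl39*, *Rps29*, *Rps28*, *Rpl38*, *Rps21*, *Rps27*, *Rps27l*, *Rpl37a* and *Rpl37*. They include every member called at day 5. In all 10, both KO libraries were below both WT libraries at day 5, against 20.7% of all genes. Their log2 fold changes ran from -1.12 to -0.28 with a median of -0.62. In the same 10 genes at day 0 both KO libraries were lower for 2, near the 21.7% of all genes, and the median was -0.10. The 10 longest, with 792 to 1257 coding bases, had a median of -0.06 at day 5 and -0.25 at day 0. The 677 tested genes with under 400 coding bases had a median of -0.09 at day 5, and the 27 members under that length -0.28. The day 5 difference also had a Spearman correlation with GC content, 0.32 across all coding genes and 0.23 across the members. With the GC and length offset, the correlation with coding length across the members was 0.53. The number and size of RNA fragments in a library were not analysed here, and their part in the result was not tested.

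Over all 81 members at day 5, 68 were below 0, with a median of -0.14 against 0.00 over all genes, and in 43 (53.1%) both KO libraries were below both WT libraries, against 20.7% of all genes. The comparisons of day 0 and of day 5 share no library, but no source says that they used separate animals. Both gave a value below 0 for 66 of 81 members (81.5%), against 26.6% of all genes, and non-overlapping libraries with KO lower for 25 (30.9%), against 5.09%. These counts rest on the day 0 labels, which *Satb1* goes against, and exchanging those labels would turn the day 0 direction of every member.

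**Figure D3:**
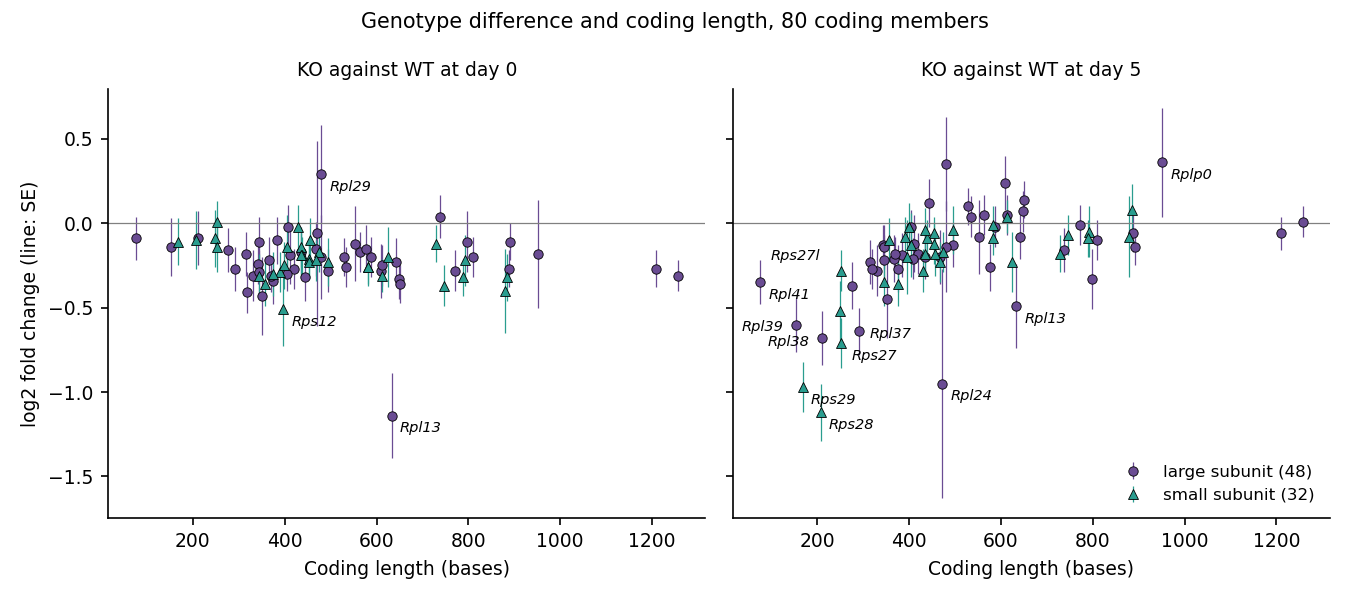
Log2 fold change of KO against WT (vertical axis, line: SE) against coding length in bases (horizontal axis) for 80 coding members at day 0 and at day 5; circles are large subunit and triangles small subunit members. At day 0 nearly all points lie below 0 around a median of -0.22, the 10 shortest around -0.10, with *Rpl13* at -1.14, and at day 5 the 10 shortest lie between -1.12 and -0.28, with *Rps28* at -1.12, *Rps29* at -0.97 and the shortest, *Rpl41*, at -0.35; *Rpl24*, at most 2.57 CPM in any library, is at -0.95.

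The largest change in the whole family came with culture and in both genotypes: *Rps27l* rose as its near-twin *Rps27* fell. *Rps27l* encodes a protein closely related to RPS27 and is known as a target of p53. It stood at 89.1 and 82.3 CPM in WT and at 82.7 and 90.3 CPM in KO at day 0, with no gap between genotypes. At day 5 it stood at 367 and 387 CPM in WT and at 313 and 307 CPM in KO. It rose 4.39-fold in WT (log2 fold change 2.14 ± 0.12, FDR = 3.09e-08, edgeR) and 3.59-fold in KO (1.84 ± 0.12, FDR = 9.02e-08). Over the same days *Rps27* went from 865 and 747 CPM to 440 and 587 CPM in WT (-0.65 ± 0.15, FDR = 0.00363, edgeR) and from 670 and 796 CPM to 332 and 296 CPM in KO (-1.22 ± 0.15, FDR = 3.26e-05). Both changes passed the test in both genotypes under every scaling tried; *Rps27* in WT missed it only without WT replicate 1 of day 0. The ratio of *Rps27l* to *Rps27* CPM, uncorrected for copied windows, was 0.107 ± 0.00503 in WT and 0.119 ± 0.00713 in KO at day 0. By day 5 it was 0.747 ± 0.125 in WT and 0.991 ± 0.0672 in KO (SD, n = 2). Of the *Rps27* windows 98.6% are copied elsewhere and of the *Rps27l* windows 22.4%, so the ratio does not compare their molecule numbers.

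The rest of the family moved by much less, and how many members rose depended on scaling. In WT, 17 members rose and 6 fell, with a median log2 fold change of 0.06, while 24.7% of all genes rose and 23.6% fell. In KO, 27 rose and 5 fell, with a median of 0.23, while 26.2% of all genes rose and 24.0% fell. The members called higher were 21.0% of those tested in WT and 33.3% in KO, and those called lower 7.4% and 6.2%. Under scaling by library totals the split was 9 to 10 in WT and 14 to 13 in KO, and with the GC and length offset it was 7 to 24 in WT and 3 to 27 in KO. These scalings also moved the median of all genes, by -0.14 and -0.18 for totals and by -0.15 and -0.16 for the offset (WT and KO). Relative to all genes, the members' median was 0.10 higher in WT and 0.28 higher in KO both by TMM and by totals, but -0.01 and 0.03 with the offset. Members called higher in both genotypes numbered 14, which is 82.4% of the 17 in WT and 51.9% of the 27 in KO. Over all genes the shares were 83.2% and 78.5%. Those 14 included *Rpl3*, *Rpl7*, *Rpl7a*, *Rpl11*, *Rpl22*, *Rpl27*, *Rpl27a*, *Rps3* and *Rps27l*, of which *Rpl7*, *Rpl11* and *Rpl27a* in WT and *Rpl7* in KO were below 0 with the offset.

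Members still called in the same direction under all 4 other scalings numbered 11 of 23 in WT and 8 of 32 in KO. The higher ones were *Rps27l* and *Rpl22* in both genotypes, *Rpl7a*, *Rpl38*, *Rpl39* and *Rpl27* in WT and *Rpl27a* in KO. *Rpl7a*, a large subunit protein, stood at 42.2 and 32.1 CPM at day 0 and 63.7 and 78.6 CPM at day 5 in WT (0.93 ± 0.18, FDR = 0.00118, edgeR), although 81.2% of its windows are copied. *Rpl38*, known for a role in translation of homeobox mRNAs in the mouse embryo, stood at 78.7 and 67.6 CPM at day 0 and 143 and 134 CPM at day 5 in WT (0.92 ± 0.16, FDR = 0.000519, edgeR). In KO it stood at 60.1 and 78.5 CPM and then at 92.2 and 81.4 CPM (0.33 ± 0.16, FDR = 0.105, edgeR). *Rpl39*, which lines the exit tunnel of the large subunit, stood at 46.0 and 42.1 CPM and then at 71.8 and 88.2 CPM in WT (0.86 ± 0.17, FDR = 0.00105, edgeR), and in KO the change was 0.40 ± 0.17 (FDR = 0.0646). *Rpl27a* rose in KO from 98.9 and 96.2 CPM to 181 and 176 CPM (0.87 ± 0.14, FDR = 0.000277, edgeR). *Rps2* and *Rpl13a* also led the list in KO by TMM, and neither was called with the offset. The *Rps2* call was also lost without replicate 1 of KO at day 0 or at day 5. *Rps2* stood at 15.1 and 19.3 CPM and then at 32.4 and 29.4 CPM (0.86 ± 0.24, FDR = 0.00977, edgeR), and *Rpl13a* is described below.

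By TMM fewer members fell than rose, and 5 of the 6 lower calls in WT and all 5 in KO were also made under all 4 other scalings. Scaling by totals and the offset moved the median of all genes down, as given above, and gave more lower calls and fewer higher ones. With the offset the members' median relative to all genes also fell, from 0.10 to -0.01 in WT and from 0.28 to 0.03 in KO. The cause was not tested. *Rplp1*, a protein of the acidic stalk that binds elongation factors, went from 549 and 492 CPM to 338 and 303 CPM in WT (-0.70 ± 0.12, FDR = 0.000369, edgeR) and from 428 and 450 CPM to 299 and 288 CPM in KO (-0.58 ± 0.12, FDR = 0.0013). *Rpl35* went from 1324 and 1266 CPM to 951 and 919 CPM in WT (-0.47 ± 0.10, FDR = 0.00267, edgeR) and from 1004 and 1091 CPM to 832 and 815 CPM in KO (-0.35 ± 0.10, FDR = 0.0148). The day 0 and day 5 libraries of both genes were apart in both genotypes, and the *Rpl35* call in KO was lost without KO replicate 2 of day 0 or either KO library of day 5 (FDR up to 0.102, edgeR). *Rpl8* went from 864 and 810 CPM to 634 and 559 CPM in WT (-0.49 ± 0.12, FDR = 0.00403, edgeR). In KO it changed by -0.21 ± 0.12 (FDR = 0.148, edgeR). *Rps28* and *Rps29* fell with culture in KO, by 0.77 (SE 0.17, FDR = 0.00261, edgeR) and 0.88 (SE 0.15, FDR = 0.000346). The *Rps28* call was lost without KO replicate 1 of day 5 (FDR = 0.0534, edgeR). In WT their changes were 0.25 ± 0.17 (FDR = 0.237, edgeR) and -0.01 ± 0.15 (FDR = 0.945).

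**Figure D4:**
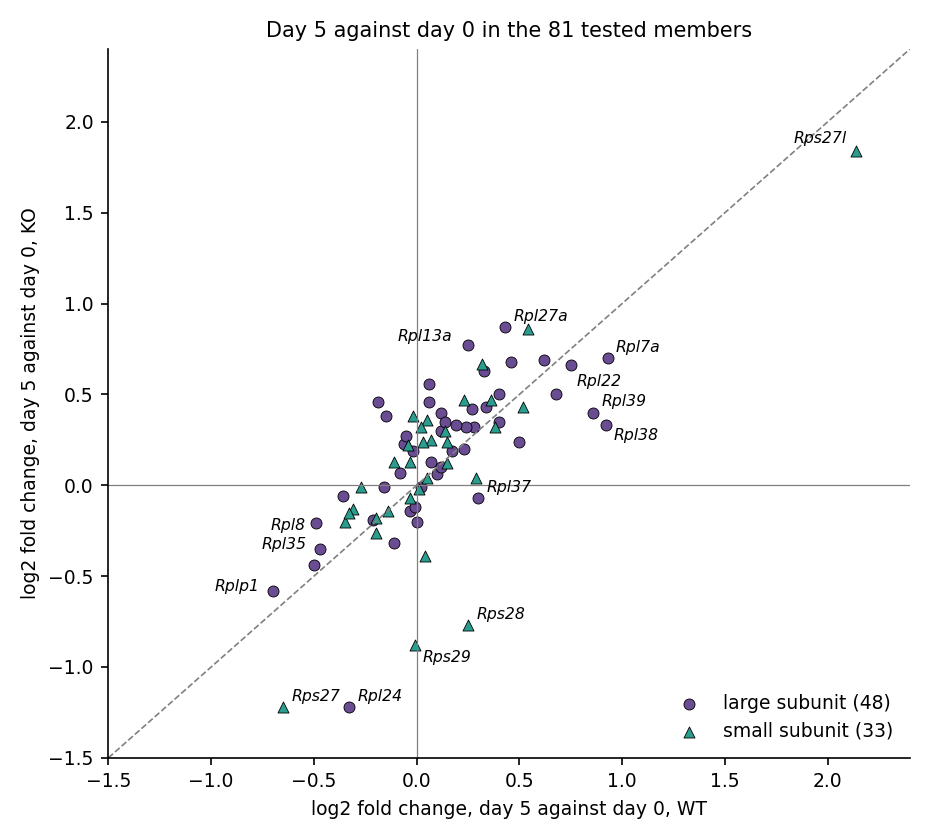
Log2 fold change of day 5 against day 0 in WT (horizontal axis) and in KO (vertical axis) for the 81 tested members, by TMM scaling; circles are 48 large and triangles 33 small subunit members, and the dashed line marks equal change. *Rps27l* stands alone at 2.14 and 1.84, *Rps27* lies lowest among well counted members, *Rps28* and *Rps29* lie at -0.77 and -0.88 in KO and at 0.25 and -0.01 in WT, and many points between 0 and 0.5 fall below 0 with the GC and length offset.

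The difference in culture response between genotypes was tested as an interaction, that is the genotype difference of day 5 less the genotype difference of day 0 on the log2 scale. Of the 81 members 0 were called by edgeR, against 0.159% of all genes; 9 (11.1%) had an unadjusted p under 0.05, against 12.4% of all genes, and DESeq2 called 1. The value of *Rps28* was -1.02 ± 0.24 (FDR = 0.127, edgeR) and that of *Rps29* -0.86 ± 0.21 (FDR = 0.133), while *Rpl24*, with at most 2.57 CPM in any library, stood at -0.89 ± 0.88 (FDR = 0.741). For *Rps29* DESeq2 gave -0.87 with an adjusted p of 0.0406, and the edgeR alternatives gave an FDR between 0.0958 and 0.488. With 2 libraries per group, the falls of *Rps28* and *Rps29* in KO are therefore not shown to differ from WT by the edgeR test.

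Some members have paralogues under related symbols. *Rpl22*, which binds RNA and is known to be needed for development of alpha-beta T cells, rose with culture from 91.4 and 86.2 CPM to 137 and 163 CPM in WT (0.75 ± 0.14, FDR = 0.00064, edgeR) and from 80.5 and 85.9 CPM to 131 and 131 CPM in KO (0.66 ± 0.13, FDR = 0.00143). Its paralogue *Rpl22l1* stood at 165 and 133 CPM and then at 171 and 167 CPM in WT (0.17 ± 0.14, FDR = 0.32, edgeR), and its change in KO was 0.19 ± 0.14 (FDR = 0.267). The ratio of *Rpl22l1* to *Rpl22* CPM was 1.68 ± 0.182 in WT and 1.54 ± 0.201 in KO at day 0, and 1.14 ± 0.159 and 1.11 ± 0.0243 at day 5. *Rpl7* rose by 0.40 ± 0.12 in WT (FDR = 0.017, edgeR) and 0.50 ± 0.12 in KO (FDR = 0.00438), while *Rpl7l1*, a protein of pre-ribosomes, changed by 0.00 ± 0.13 (FDR = 0.989) and -0.20 ± 0.13 (FDR = 0.221). Both *Rpl7* values were below 0 with the offset. The *Rpl7* call in WT was lost by library totals and without WT replicate 2 of day 0, and that in KO without KO replicate 1 of day 0. *Rpl3* rose by 0.46 ± 0.11 in WT (FDR = 0.00315, edgeR) and 0.68 ± 0.11 in KO (FDR = 0.000181), and neither was called with the offset. *Rpl10* changed by 0.27 ± 0.14 in WT (FDR = 0.123, edgeR) and 0.42 ± 0.13 in KO (FDR = 0.0207), *Rpl6* by 0.14 ± 0.11 (FDR = 0.299) and 0.35 ± 0.11 (FDR = 0.0155), and *Rps12* by 0.05 ± 0.22 (FDR = 0.861) and 0.36 ± 0.22 (FDR = 0.189). The KO values of *Rpl10* and *Rpl6* turned negative with the offset, and each call was lost under 5 further alternatives.

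Several members have roles outside the ribosome or serve as reference genes. *Rpl5* and *Rpl11*, which bind MDM2 together with 5S RNA when ribosome assembly fails, had these values: *Rpl5* changed by 0.02 ± 0.11 in WT and -0.01 ± 0.11 in KO (FDR = 0.889 and 0.962, edgeR), and *Rpl11* rose by 0.33 ± 0.12 in WT (FDR = 0.0416) and 0.63 ± 0.12 in KO (FDR = 0.00109). With the offset *Rpl11* in WT was at -0.05, and in KO it was not called (FDR = 0.385, edgeR). *Rpl13a* stood at 41.7 and 45.7 CPM in WT and 34.8 and 37.1 CPM in KO at day 0, and at 50.4 and 53.3 CPM and 57.9 and 64.4 CPM at day 5 (0.25 ± 0.16 in WT, FDR = 0.22, and 0.77 ± 0.16 in KO, FDR = 0.00132, edgeR). *Rps6*, the classic substrate of S6 kinase, changed by 0.02 ± 0.12 in WT (FDR = 0.923, edgeR) and by 0.32 ± 0.12 in KO (FDR = 0.0349). *Rps19*, mutated in Diamond-Blackfan anaemia, fell by 0.35 in WT (SE 0.13, FDR = 0.0373, edgeR) and changed by -0.20 ± 0.13 in KO (FDR = 0.21). Its WT call was lost under 9 alternatives, DESeq2 size factors and the 4 WT libraries alone among them, with an FDR of up to 0.292. *Rpsa*, also described as a laminin receptor, changed by -0.02 ± 0.15 in WT (FDR = 0.911, edgeR) and 0.38 ± 0.14 in KO (FDR = 0.0446). *Rps27a*, made as a fusion with ubiquitin, changed by 0.05 ± 0.12 and 0.04 ± 0.12 (FDR = 0.77 and 0.806, edgeR), and *Rplp2*, of the stalk, by -0.08 ± 0.13 and 0.07 ± 0.13 (FDR = 0.634 and 0.68). With the offset *Rps6* and *Rpsa* in KO turned to -0.14 and -0.08. The calls of *Rpl11* in WT and of *Rps6* and *Rpsa* in KO were each lost under 8 further alternatives. Of the members with the most counts per kb not yet described, *Rpl32* changed by 0.12 ± 0.10 in WT and 0.40 ± 0.10 in KO (FDR = 0.365 and 0.00649, edgeR), *Rpl4* by -0.05 ± 0.09 and 0.27 ± 0.09 (FDR = 0.699 and 0.0272), and *Rps14* by -0.03 ± 0.10 and 0.13 ± 0.10 (FDR = 0.816 and 0.291). *Rpl32* in KO was not called with the offset or by library totals. *Rpl4* in KO turned to -0.09 with the offset and was not called under 6 further alternatives.

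A few members differed between the libraries of a group in the same way at both days. *Rps3a3*, on chromosome 13 (108670603 to 108671397, GRCm38) and annotated as a processed pseudogene, had 799 and 0 counts in replicates 1 and 2 of WT at day 0, and 1289 and 4 counts in KO at day 0. At day 5 it had 636 and 1 counts in WT and 562 and 4 counts in KO. Every replicate 1 library thus had at least 562 counts and every replicate 2 library at most 4. *Rps3a1*, the coding gene of this name, stood between 250 and 382 CPM in all 8 libraries, and was higher in replicate 2 of every group, by 0.13 to 0.35 on the log2 scale. *Rplp0*, the anchor of the acidic stalk and often used as a reference gene, stood at 1309 and 2676 CPM in WT and 2013 and 1499 CPM in KO at day 0. At day 5 it stood at 1259 and 2324 CPM in WT and 2729 and 1855 CPM in KO. In WT replicate 1 was the lower and in KO replicate 1 the higher, at both days. *Rpl34* stood at 123 and 117 CPM in replicate 2 of KO at day 0 and day 5, and between 179 and 224 CPM in the other 6 libraries. A ratio of replicate 2 to replicate 1 of at least 0.5 on the log2 scale in the same direction at both days was found for 3 of 81 members in WT (*Rpl29*, *Rplp0* and *Rps3a3*) and 2 in KO (*Rpl34* and *Rps3a3*), against 3.37% and 3.07% of all genes tested. The members' shares, 3.7% and 2.47%, are near those of all genes. Changes of *Rplp0* with culture or genotype were at most 0.38 on the log2 scale, and its difference between replicates was at least 0.42 in each group. By replicate number both KO libraries were higher at day 5, and with a replicate block within genotype, chosen after seeing the data, *Rplp0* was called in KO (0.37, FDR = 0.0126, edgeR).

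**Figure D5:**
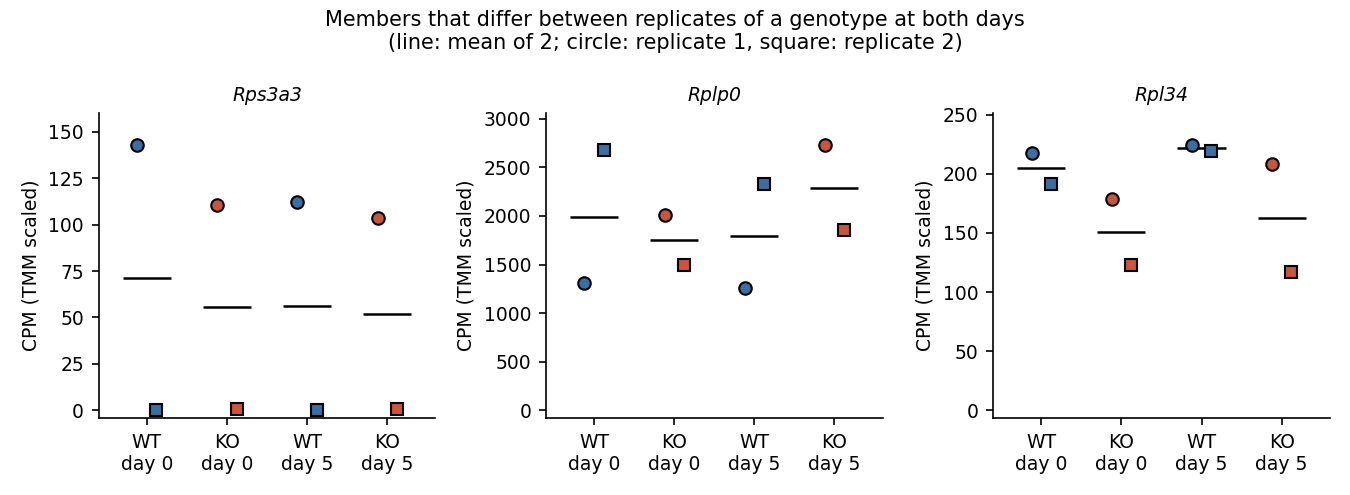
TMM-scaled CPM (vertical axis), of *Rps3a3*, *Rplp0* and *Rpl34* in each library; lines are means of 2, circles replicate 1, squares replicate 2, blue WT and red KO. *Rps3a3* is between 103 and 143 CPM in each replicate 1 library and under 1 CPM in each replicate 2 library, *Rplp0* is split in opposite ways in WT and KO, and *Rpl34* is lowest in replicate 2 of KO at both days (123 and 117 CPM).

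Genes that work beside the members were read from fixed lists. The counts below stand beside 24.7% of all genes that rose with culture and 23.6% that fell in WT, and 26.2% and 24.0% in KO. Of ribosomal genes outside the symbol rule, such as *Fau* and *Rack1*, 0 of 4 were called between genotypes, and with culture 1 of 4 rose in WT and 3 of 4 in KO. Of 16 other mRNAs with a 5′ TOP motif, mostly translation factors, 16 were below 0 in KO against WT at day 0, as were 50.2% of all genes, with a median of -0.24 beside the members' -0.22, and none was called. At day 5, 9 of the 16 were below 0, with a median of -0.06 beside the members' -0.14, and none was called. With culture 6 rose and 2 fell in WT, and 10 rose and 0 fell in KO. *Npm1*, a nucleolar chaperone in that list, rose by 1.38 in WT (FDR = 7.16e-07, edgeR) and 1.36 in KO (FDR = 7.26e-07). Of 30 genes of ribosome assembly and rRNA synthesis, 29 were tested. With culture 6 rose and 10 fell in WT and 3 rose and 7 fell in KO, with *Ncl* higher by 0.60 and 0.87 and *Heatr1* lower by -0.92 and -1.05. Between genotypes 1 of the 29 was called, *Gnl3*, a nucleolar GTPase, at day 5 (-0.70 ± 0.16, FDR = 0.0474, edgeR). Of 10 regulators, 4 rose and 4 fell in WT, and 3 rose and 2 fell in KO. *Myc*, which drives ribosome production, rose from 144 and 163 CPM to 457 and 623 CPM in WT (1.82, FDR = 6.41e-06, edgeR) and from 84.6 and 124 CPM to 457 and 466 CPM in KO (2.15, FDR = 1.34e-06). *Eif4ebp1*, a translation repressor inhibited by mTOR, rose from at most 1.25 CPM to between 7.17 and 15.9 CPM. The regulators called lower in WT were *Mtor* (-0.62), *Rptor* (-1.08), *Rps6kb2* (-0.77) and *Eif4ebp2* (-1.37). In KO they were *Mtor* (-0.62) and *Trp53* (-0.39). *Mdm2* stood at 36.7 and 49.1 CPM and then at 44.3 and 75.7 CPM in WT (0.48, FDR = 0.111, edgeR). Between genotypes 0 of the 10 were called at either day.

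Of the 77 mitochondrial ribosomal protein genes, 76 were tested. With culture 27 rose and 0 fell in WT, where 24.7% of all genes rose and 23.6% fell. In KO 31 rose and 1 fell, where 26.2% of all genes rose and 24.0% fell. The medians of the mitochondrial genes were 0.38 in WT and 0.36 in KO, beside 0.06 and 0.23 for the cytosolic members. Between genotypes 1 was called lower at day 0 and 0 at day 5, with medians of -0.11 and -0.13. Of 274 listed -ps pseudogenes, 35 were tested and 0 called between genotypes. In KO against WT, 28 of the 35 were below 0 at day 0 and 20 at day 5, against 50.2% and 50.0% of all genes. The medians were -0.26 and -0.06. With culture 2 rose in WT and 3 in KO, shares below those of all genes, with medians of 0.05 and 0.32. The 274 pseudogenes together held between 0.0569% and 0.0789% of the gene counts of a library.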

How the data were processed

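RNA of 8 libraries was analysed. The authors deposited raw read counts per gene symbol, made per the submitters' processing notes with HISAT2 2.1.0 and HTSeq 0.11.1 on mm10 (GRCm38) from 50-base reads; the annotation and the strand setting are not given in the sources used here. Reads aligned to more than 1 place (31.8% to 37.4% of records) were not counted. At day 0 they were 34.5% and 33.5% of records in WT and 32.1% and 31.8% in KO, with no overlap. At day 5 they were 37.4% and 35.8% in WT and 36.3% and 35.7% in KO. The part of these differences in the results was not tested. Groups came from the sample titles.

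Counts were tested with edgeR 4.0.16 in R 4.3.3 (TMM, filterByExpr with a minimum count of 10, quasi-likelihood fit of all 8 libraries, Benjamini-Hochberg over 12597 genes, two-sided). The fit was tested on simulated data. Alternatives were DESeq2 1.42.0, DESeq2 size factors, library totals, TMM without the members, no filter, the 4 libraries compared, a replicate block (also within genotype, added after seeing the data), the edgeR 4 form, an offset fitted in each library on GC content and transcript length (loess span 0.3, 96.7% of genes) and leaving out each library. Lengths and copied windows came from GENCODE M21. Shares cover counting of reads without molecular identifiers.

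Members and lists were chosen with earlier results of these data known. Named were, per comparison, the 5 called members with the largest change in each direction and no overlap between replicates, the paralogue pairs, 10 well known members and the 5 with the most counts per kb (some of these genes are not reported here); *Rpl36a*, *Rps12* at day 0, *Rpl38* at day 5, *Rpl24*, *Rps2*, *Rpl21*, *Rpl13* and *Rps12* as low members, the 10 shortest, *Rps3a3*, *Rps3a1*, *Rpl34*, *Rpl29* and the examples from the lists were named after their values were seen. The context lists were ribosomal genes outside the rule, other 5′ TOP mRNAs, assembly factors, regulators, mitochondrial ribosomal proteins, -ps pseudogenes and cell type markers.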

Additional observations from a re-analysis of the deposited data

How the results depend on the processing

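Each group holds 2 libraries, which limits every test here. The direction of the family with culture depended on scaling. The median of the members in WT was 0.06 and became -0.07 by library totals and -0.20 with the GC and length offset, and in KO it was 0.23 and became 0.05 and -0.18; the all-gene medians moved too, as given above, and the cause was not tested. Under the offset, values of named members that had been positive and were called before or after became -0.02 for *Rpl10*, -0.09 for *Rpl4*, -0.15 for *Rpl6*, -0.02 for *Rpl7*, -0.51 for *Rplp2*, -0.14 for *Rps6* and -0.08 for *Rpsa* in KO, and -0.05 for *Rpl11*, -0.39 for *Rpl5*, -0.30 for *Rpl6*, -0.25 for *Rpl7*, -0.06 for *Rpl27a* and -0.43 for *Rps6* in WT.

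Members called between genotypes at day 0 were 1, and 0 by library totals and with the offset. Leaving out 1 library gave 0 to 2 at day 0, 0 to 5 at day 5 (4 in all), 15 to 25 for culture in WT (23 in all, 15 without WT replicate 2 of day 0) and 17 to 36 for culture in KO (32 in all, 17 and 20 without replicates 1 and 2 of KO at day 5); 1 library then stands for its group and is assumed to vary like the others. At day 5 the 4 libraries of that day alone gave 2. For the interaction DESeq2 gave 1 and each edgeR setting 0. With no filter the culture counts were 17 in WT and 24 in KO. Leaving out 1 library gave medians from -0.30 to -0.15 at day 0, from -0.20 to -0.10 at day 5, from 0.03 to 0.17 for culture in WT and from 0.16 to 0.30 in KO. Adding -ps pseudogenes raised the share of KO at day 0 from 3.13% to 3.18%.

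Same-numbered libraries were compared by their deviations from the group means over 12597 genes. Pearson correlations were 0.118 between days in WT, 0.228 between days in KO and between -0.074 and 0.004 across genotypes. No source says that a number marks a shared animal or batch; the values between days within a genotype are a hint from the data and not from the design. With the replicate block, 1 member was called at day 0, 4 at day 5, 23 for culture in WT, 31 in KO and 0 for the interaction. With a replicate block within each genotype, chosen after seeing the data and run for culture and the interaction, the counts were 24 in WT, 31 in KO and 0; among the named members *Rplp0* in KO was then called (0.37, FDR = 0.0126, edgeR) and *Rpsa* in KO no longer was.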
